A study of Arabidopsis thaliana with 6 samples.

Results

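SWEET genes encode small membrane proteins that let sugars pass down their gradient across the plasma membrane or the vacuolar membrane (tonoplast). Members of clade I and clade II mostly carry hexoses. Members of clade III carry sucrose, and members of clade IV sit in the tonoplast, where SWEET17 is known to carry fructose. HY5 is a bZIP transcription factor that promotes photomorphogenesis, and work on shoots has placed *SWEET11* and *SWEET12* downstream of it.

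The genes described here are 10 SWEET loci of *Arabidopsis*, *SWEET1* (AT1G21460), *SWEET2* (AT3G14770), *SWEET4* (AT3G28007), *SWEET11* (AT3G48740), *SWEET12* (AT5G23660), *SWEET13* (AT5G50800), *SWEET14* (AT4G25010), *SWEET15* (AT5G13170), *SWEET16* (AT3G16690) and *SWEET17* (AT4G15920). They were chosen by the first 9 characters of the name each probe carries in the scanner files. After probes with an outlier flag were left out, they are 10 of 29004 genes and had 14 of 43573 probes. Total RNA was extracted and labeled with a single dye. The labeled product was hybridized to 6 Agilent arrays, 3 for each genotype, wild type and *hy5*. All seedlings were of the Col background and stood in continuous white light for 3 days, on MS medium to which no sucrose had been added. The mutant was a single insertion line, SALK_096651, and whole seedlings were sampled, so fewer cells of a type and less RNA per cell cannot be told apart.

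A signal is given as the spot intensity divided by the 75th percentile of its array. On this scale the *HY5* transcript was at a mean of 1.31 in wild type and 0.0223 in *hy5* (log2 difference -5.91, limma adjusted p = 7.57e-06). The mean 75th percentile was 1.91 times higher for *hy5* than for wild type, whereas spike-in RNA gave unscaled *hy5* signals of 0.621 to 1.01 times those of wild type. The changes below are relative to that percentile. Each genotype had its own slide and scan session, so slide and genotype cannot be told apart. No source says that replicates came from separate plants, and the p-values measure the spread between arrays, which may be technical. Seedling transcripts were present. *RBCS1A*, *CAB3* and *LHCA1*, which encode proteins of the photosynthetic apparatus, had mean signals of 314 to 493 in the genotypes, and the root markers *EXPA7*, *COBL9* and *PHT1;1* exceeded background on all 6 arrays.

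Of the 10 SWEET members, 9 could be tested, having a probe that every array of at least 1 genotype measured well above background. By limma, 6 of the 9 differed between genotypes at a Benjamini-Hochberg adjusted p under 0.05, with 4 higher and 2 lower in *hy5*. This threshold was passed by 52.8% of all 21590 genes tested, 26.3% higher and 26.6% lower, so the share among the members was near that of the background. Only *SWEET1* also changed by at least 2-fold, and it fell. That joint rule, under which a gene is named as called, was met by 11.4% of all genes, 6.55% higher and 4.84% lower. The median log2 difference of the 9 members was 0.14, against -0.0044 over all genes tested. Both clade I members fell and both clade IV members rose, so the family did not move in 1 direction.

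**Figure D1:**
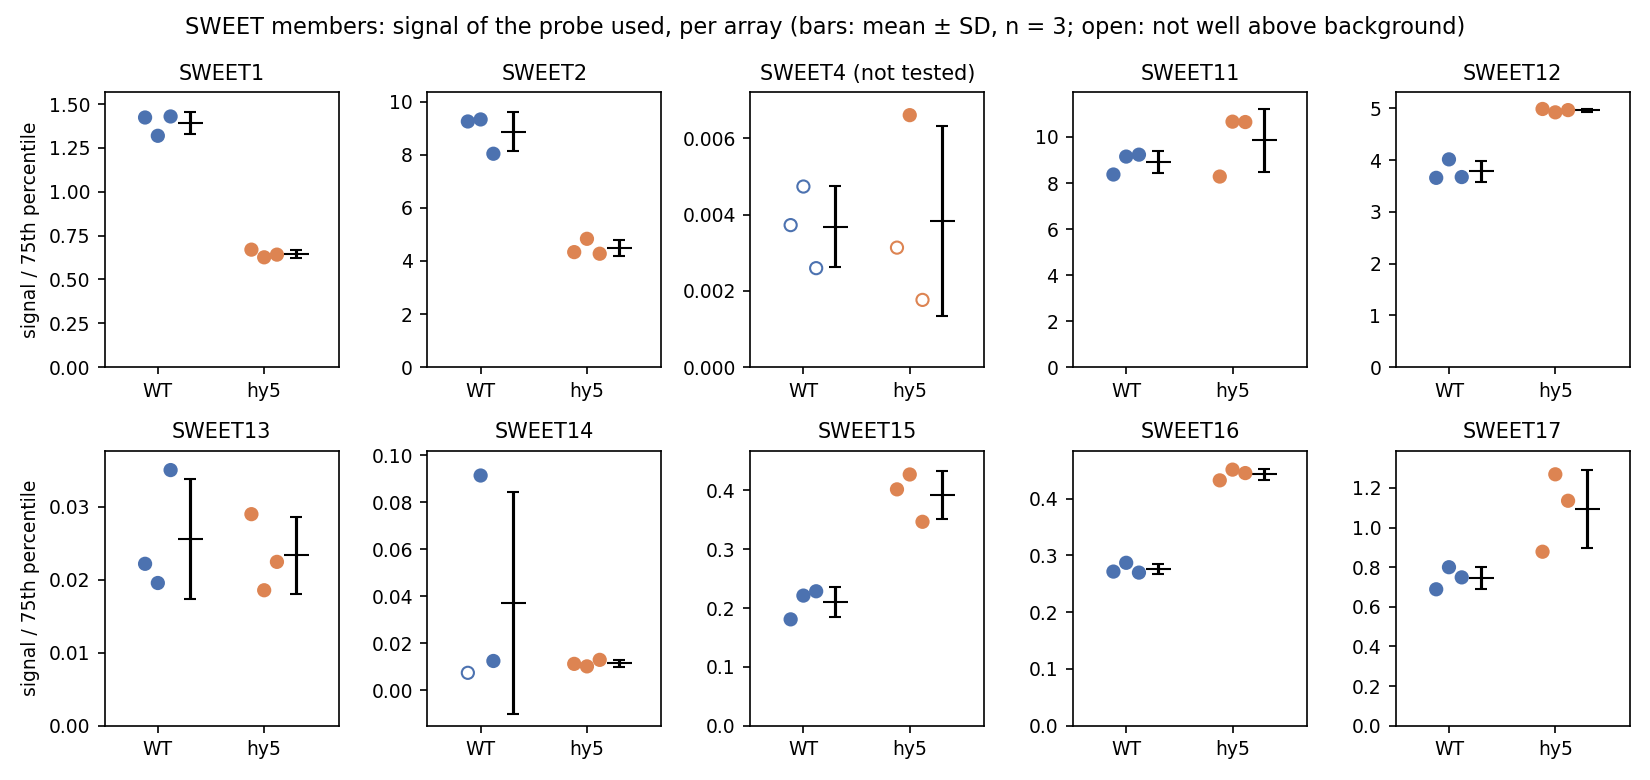
Signal over the array's 75th percentile (vertical axis, linear, a separate scale in each panel) on each wild-type and *hy5* array, for the probe used for each SWEET member; for *SWEET4*, which was not tested, the probe with the higher *hy5* mean is drawn. Points are arrays, open points were not well above background, and bars are the mean ± SD of 3 arrays. *SWEET1* and *SWEET2* lie lower on every *hy5* array, *SWEET12*, *SWEET15*, *SWEET16* and *SWEET17* lie higher, and *SWEET14* has a single high array in wild type, whose SD bar reaches below 0.

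*SWEET1* of clade I encodes a glucose facilitator of the plasma membrane. Its signal was 1.42, 1.32 and 1.43 on the wild-type arrays and 0.670, 0.626 and 0.642 on the *hy5* arrays. The genotypes did not overlap, and each *hy5* array lay below each wild-type array by more than the spread within a genotype. Arrays of the genotypes also did not overlap for 62.5% of all genes tested. *SWEET1* fell 2.15-fold in *hy5*, by a log2 difference of -1.11 (SE 0.086, limma adjusted p = 8.35e-05). With each array left out in turn it lay between -1.14 and -1.08, and *SWEET1* was called each time. The unscaled intensities were close, with 694 to 797 on wild-type arrays against 615 to 682 on those of *hy5*. The fall of *SWEET1* is thus a fall relative to the 75th percentile of the array, and without scaling between arrays its log2 difference was -0.17 (limma adjusted p = 0.21), beside a median of 0.93 over all genes.

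*SWEET2*, the other clade I member, encodes a tonoplast protein known from roots, where it limits the loss of sugar to the soil. Its brighter probe had a signal of 9.25, 9.33 and 8.04 in wild type and of 4.33, 4.83 and 4.27 in *hy5*. No *hy5* array reached the level of a wild-type array. *SWEET2* fell 1.98-fold, just under the 2-fold limit (log2 difference -0.99, SE 0.10, limma adjusted p = 0.000271). A second probe of *SWEET2* gave 3.04, 3.11 and 3.11 in wild type and 1.52, 1.93 and 1.76 in *hy5*, a log2 difference of -0.84 (limma adjusted p = 0.000837 over all probes). *SWEET2* passed the 2-fold limit under quantile normalization (-1.05), under cyclic loess (-1.01) and without wild-type replicate 3 (-1.05) or *hy5* replicate 2 (-1.04). Without scaling between arrays it was at -0.051 (limma adjusted p = 0.704). At an adjusted p under 0.05, 26.6% of all genes tested were lower in *hy5*. The light-grown seedling markers *RBCS1A*, *CAB3* and *LHCA1* were also lower at that threshold, by log2 differences of -0.44, -0.48 and -0.33. Their summed signal was 1207 to 1403 on wild-type arrays against 956 to 1051 on those of *hy5*, and the part of green tissue in the values of *SWEET1* and *SWEET2* was not tested.

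The third clade I gene of the genome, *SWEET3*, is not among the 10 members and went the other way. Its signal was 0.0590, 0.0690 and 0.0531 in wild type and 0.353, 0.361 and 0.347 in *hy5*. Every array detected *SWEET3*, and it rose 5.89-fold (log2 difference 2.56, SE 0.11, limma adjusted p = 1.31e-05). This was the largest difference among the 11 SWEET genes tested. With normexp background correction *SWEET3* was at 1.05 and was still called. Its wild-type spots were dim, with unscaled intensities of 28.7, 38.5 and 29.6, against 359, 354 and 367 in *hy5*.

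**Figure D2:**
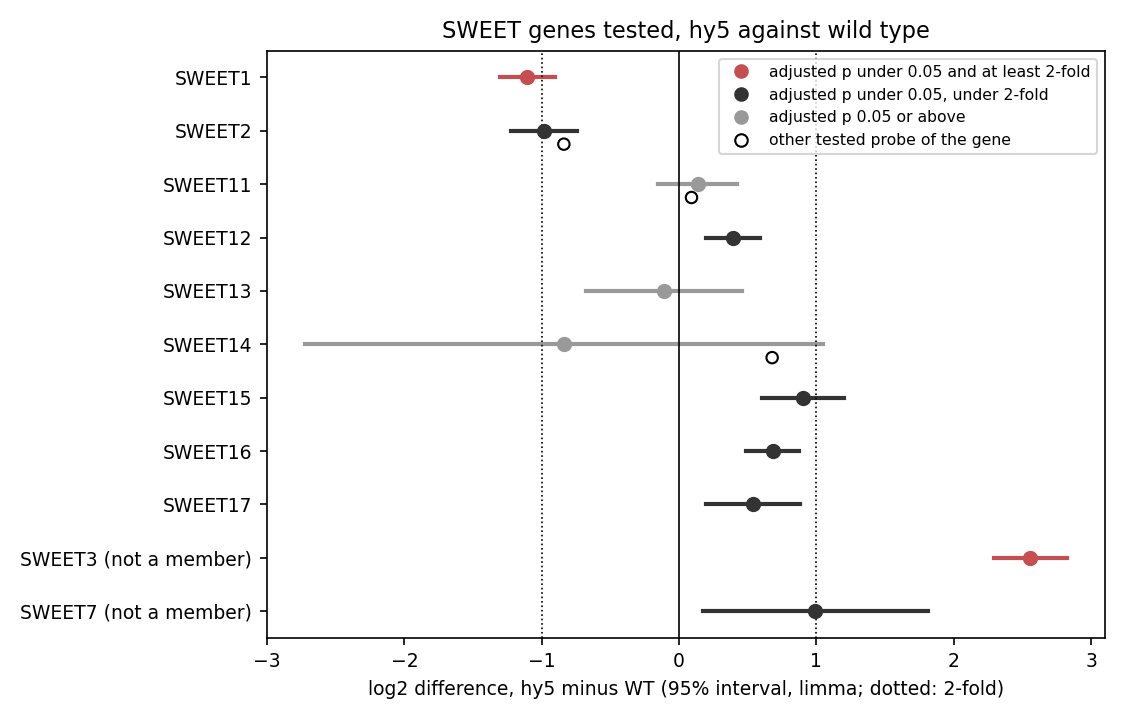
Log2 difference of *hy5* minus wild type (horizontal axis) for each tested SWEET gene, with the 95% interval of limma as a line, open circles for other tested probes of the same gene, and dotted lines at 2-fold. The clade I members *SWEET1* and *SWEET2* lie near -1, *SWEET12* and *SWEET15* to *SWEET17* lie between 0.39 and 0.90, and *SWEET3* stands at 2.56. *SWEET7* is drawn but not read as a difference. It entered the test only through *hy5*, at a level not above the detection floor of the wild-type arrays.

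In clade III, *SWEET11* and *SWEET12* encode the sucrose exporters of phloem parenchyma cells, which hand sucrose to the companion cells for loading. *SWEET11* had a signal of 8.37, 9.15 and 9.23 in wild type and of 8.28, 10.7 and 10.6 in *hy5*. The genotypes overlapped, because *hy5* replicate 1 was below all wild-type arrays. Its log2 difference was 0.14 (95% interval -0.15 to 0.42, limma adjusted p = 0.375), an interval that does not reach a 2-fold change in either direction but does not show equal levels. Its second probe had a mean of 1.10 in wild type and 1.17 in *hy5* (log2 difference 0.091, limma adjusted p = 0.677 over all probes). With normexp background correction *SWEET11* was at 0.26 and passed the threshold (limma adjusted p = 0.0334).

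*SWEET12* had 3.66, 4.02 and 3.67 in wild type and 4.99, 4.92 and 4.97 in *hy5*. Its *hy5* arrays were all higher and lay close together. *SWEET12* rose 1.31-fold, with a log2 difference of 0.39 (95% interval 0.19 to 0.59, limma adjusted p = 0.00665). Whether *SWEET12* rose more than *SWEET11* was not tested. The probe sequences were not used here, so signal that related SWEET transcripts may share could not be assessed.

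*SUC2*, which encodes the sucrose-proton symporter that loads the companion cells, had a mean of 18.1 in wild type and of 16.1 in *hy5* (log2 difference -0.17, limma adjusted p = 0.279). The list of 5 phloem markers, *SUC2*, *APL*, *SEOR1*, *SEOR2* and *AHA3*, had none called, against 11.4% of all genes tested. All 5 were detected on every array. Of them, 3 were lower at an adjusted p under 0.05, by -0.44 to -0.33 on the log2 scale, against 26.6% of all genes. The summed signal of the 5 was 27.9 to 31.5 on wild-type arrays against 23.4 to 28.6 on those of *hy5*. All 5 markers had log2 differences below 0 and *SWEET12* lay above 0, but *SUC2*, *SEOR1* and *SWEET11* overlapped between the genotypes. The part of phloem cell number in the values of the markers and of *SWEET12* was not tested.

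*SWEET13* and *SWEET14* carry sucrose and, in *Arabidopsis*, are also known to carry gibberellin in anthers. Both were dim in these seedlings. *SWEET13* had 0.0222, 0.0195 and 0.0350 in wild type and 0.0290, 0.0186 and 0.0224 in *hy5*, with overlapping genotypes. Its log2 difference was -0.11 (95% interval -0.68 to 0.46, limma adjusted p = 0.725). The sign changed without wild-type replicate 3 (0.14) or *hy5* replicate 2 (0.043), and no direction is given for it. With normexp background correction *SWEET13* and *SWEET14* passed the threshold, at -0.69 and -0.99 (limma adjusted p of 1.74e-05 and 4.78e-05), in a setting that moved the median of all genes to -0.20.

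*SWEET14* turned on 1 array. Its brighter probe had 0.00749, 0.0914 and 0.0125 in wild type and 0.0113, 0.0102 and 0.0130 in *hy5*. Wild-type replicate 2 stood apart from the other arrays, and wild-type replicate 1 was not well above background. For this probe the log2 difference was -0.84 (SE 0.81, limma adjusted p = 0.411), and without wild-type replicate 2 it was 0.24 (limma adjusted p = 0.411). The other *SWEET14* probe did not show a high value on that array. It gave 0.00380, 0.00935 and 0.0155 in wild type and 0.0108, 0.0159 and 0.0132 in *hy5*, and was well above background on 1 of 3 wild-type arrays and on all *hy5* arrays. Its log2 difference was 0.68 (limma adjusted p = 0.249 over all probes), opposite in sign to that of the brighter probe.

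*SWEET15*, also named *SAG29*, is known from senescing leaves and, with *SWEET11* and *SWEET12*, from the supply of sugar to the embryo in developing seeds. Its signal was 0.181, 0.221 and 0.228 in wild type and 0.402, 0.427 and 0.347 in *hy5*. Every *hy5* array lay above every wild-type array. *SWEET15* rose 1.87-fold (log2 difference 0.90, SE 0.13, limma adjusted p = 0.00103). It was at 0.55 with normexp and at 0.80 to 0.99 with each array left out.

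Seed transcripts were also higher in *hy5*. All 10 genes of a seed list were called higher, against 6.55% of all genes tested, with log2 differences of 1.50 to 4.73 and a median of 2.96. Of these, *OLEO2* and *CRU2* entered the test only through *hy5*, since 2 of 3 wild-type arrays detected each. The largest rises were those of *EM1*, a late embryogenesis gene (4.73), of *OLEO2*, an oil body protein gene that 2 of 3 wild-type arrays detected (3.55), and of the storage protein gene *CRU1* (3.27). The summed signal of the list was 0.948 to 1.74 on wild-type arrays against 8.55 to 14.7 on those of *hy5*, and every array detected 8 of the 10, the exceptions being *OLEO2* and *CRU2*. The part of seed-stage RNA in the values of *SWEET15*, *SWEET11* and *SWEET12* was not tested.

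Both clade IV members rose. *SWEET16* and *SWEET17* encode tonoplast facilitators that move sugars between vacuole and cytosol. *SWEET16* had 0.271, 0.287 and 0.270 in wild type and 0.432, 0.451 and 0.445 in *hy5*. This was a clear separation with little spread in either genotype. *SWEET16* rose 1.60-fold (log2 difference 0.68, SE 0.083, limma adjusted p = 0.000511). It was at 0.40 with normexp (limma adjusted p = 0.000707). *SWEET17* had 0.688, 0.800 and 0.748 in wild type and 0.878, 1.27 and 1.13 in *hy5*. The genotypes did not overlap, but the *hy5* arrays were more spread, with replicate 1 nearest to wild type. *SWEET17* rose 1.45-fold (log2 difference 0.54, SE 0.15, limma adjusted p = 0.017). *SWEET17* no longer passed the threshold without wild-type replicate 1, *hy5* replicate 2 or *hy5* replicate 3 (limma adjusted p of 0.0512, 0.0525 and 0.0589), nor in the methods' t-test, before or after adjustment.

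Root transcripts were also higher in *hy5*. All 3 root markers were higher at an adjusted p under 0.05, against 26.3% of all genes tested. *PHT1;1*, a phosphate transporter gene of the root, was called (log2 difference 1.24, SE 0.18, limma adjusted p = 0.00118), as were 6.55% of all genes in that direction. The summed signal of the 3 root markers was 11.4 to 16.4 on wild-type arrays against 24.3 to 30.2 on those of *hy5*. *SWEET16*, *SWEET17* and *SWEET2* are all known from roots, and the first 2 rose while *SWEET2* fell. The part of root tissue in these values was not tested.

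*SWEET4*, the clade II member, encodes a hexose facilitator and was not tested. Its first probe exceeded background on *hy5* replicate 2 alone, with a signal of 0.00660 there and of 0.00176 to 0.00473 on the other 5 arrays. Its second probe exceeded background on no array. Of the other clade II genes, *SWEET6* and *SWEET8* were well above background on no array, and *SWEET5*, known from pollen, only on wild-type replicate 2, where it was at 0.130 against 0.00113 to 0.00414 on the other arrays. One probe of *SWEET7* was above background on all 3 *hy5* arrays and on no wild-type array, and so entered the test only through *hy5*. No fold or p is given for *SWEET7* in the text, and its drawn points are not read as a difference. The reason is that its *hy5* level was not above the detection floor of the wild-type arrays. The second *SWEET7* probe was above background on no array. Of the remaining clade III genes, *SWEET9*, known from nectaries, was above background on no array and *SWEET10* on 1.

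Other sugar carriers and sucrose-cleaving enzymes around the family are set beside the 11.4% called over all genes tested, 6.55% higher and 4.84% lower. Of 9 genes for sucrose-proton symporters (*SUC1* to *SUC9*), 6 were tested, and *SUC5*, known from the endosperm, was called lower, from a mean of 0.429 in wild type to 0.201 in *hy5* (log2 difference -1.09, limma adjusted p = 0.000442). *SUC5* was no longer called without wild-type replicate 2 (-0.97), nor in the methods' t-test after adjustment. Several genes of this list are close copies of each other and can share probe signal. Of 14 hexose-proton symporter genes (*STP1* to *STP14*), 10 were tested and 1 was called. This was *STP11*, known from pollen tubes, which rose from a mean of 0.0260 to 0.0947 (log2 difference 1.86, limma adjusted p = 0.00012). *STP11* was not called with normexp (0.25) or in the methods' t-test after adjustment.

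None of 10 genes for tonoplast and ERD6-type sugar carriers was called, against 11.4% of all genes tested. Only 1 of them, *SFP2*, passed an adjusted p of 0.05, against 52.8% of all genes. Its log2 difference was -0.97 (limma adjusted p = 0.000496). The same list had 9 genes with an adjusted p of 0.05 or above. Arrays of the genotypes did not overlap for 7 of the 10 genes, against 62.5% of all genes tested. Of 8 invertase-type genes, 5 were tested and 1 was called. *CWINV6*, which the gene table lists as a fructan exohydrolase, rose 2.58-fold (log2 difference 1.37, limma adjusted p = 4.05e-05), and was at 0.055 and not called with normexp. The median log2 differences of these 4 lists were 0.13 (*SUC*), 0.13 (*STP*), -0.13 (tonoplast and ERD6-type) and 0.078 (invertase-type), against -0.0044 over all genes.

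**Figure D3:**
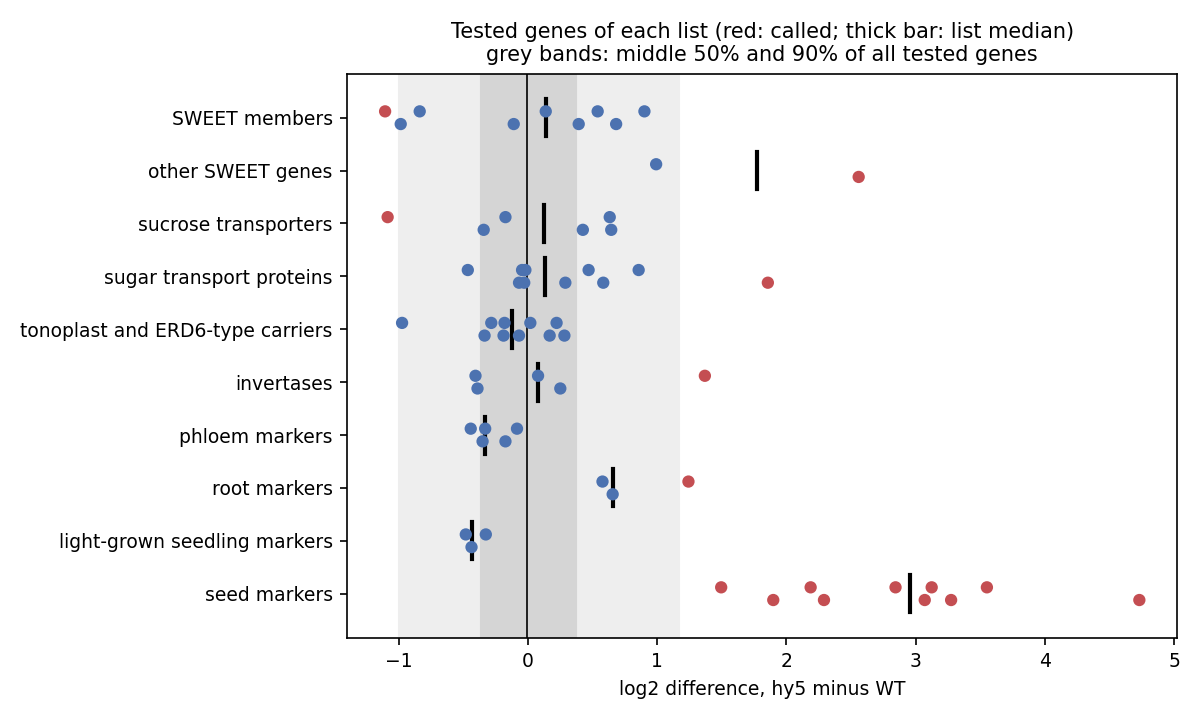
Log2 difference of *hy5* minus wild type (horizontal axis) of every tested gene in each list, with red points for called genes, a thick bar for the list median, and grey bands for the middle 50% and 90% of all 21590 genes tested. The SWEET members spread over both sides of 0 with a median of 0.14, while the seed markers all lie at 1.50 or above. *SWEET7*, drawn among the other SWEET genes, entered the test only through *hy5* and is not read as a difference. Among the seed markers, *OLEO2* and *CRU2* also entered the test only through *hy5*.

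By order in the TAIR10.1 gene table, the 10 members have 20 flanking protein-coding genes, of which 13 were tested. By limma 8 of the 13 differed at an adjusted p under 0.05, 4 higher and 4 lower, against 52.8% of all genes, and 0 were called, against 11.4% of all genes. *SWEET10* and *SWEET13* are direct neighbors, and *SWEET10* was not tested. The 3 genes whose signals ran most like that of *SWEET1* over the 6 arrays, among 19646 others well above background on all arrays, were *DGAT3* (Pearson r = 0.9997), AT2G07727 (0.9995) and AT4G17250 (0.9994). These values mostly carry the split between genotypes, since 2445 genes had an r over 0.95. The log2 differences of these 3 genes were -0.75, -0.38 and -1.40.

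**Figure D4:**
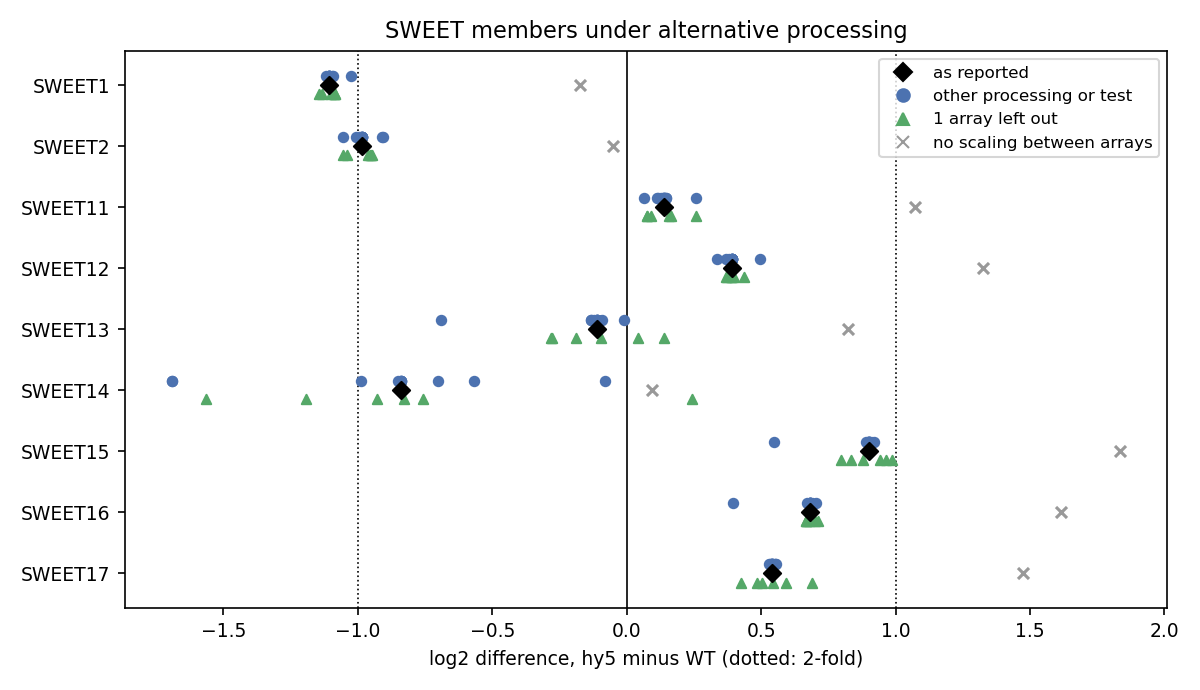
Log2 difference of *hy5* minus wild type (horizontal axis) for each tested SWEET member as reported (diamonds), under other processing or tests (circles), with 1 array left out (triangles) and without scaling between arrays (crosses). *SWEET1*, *SWEET2*, *SWEET12* and *SWEET15* to *SWEET17* keep their sign in all settings drawn, whereas *SWEET13* and *SWEET14* cross 0, and every cross lies to the right because the unscaled *hy5* arrays were brighter.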

How the data were processed

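The authors extracted spot values with Agilent Feature Extraction 10.7.3 and deposited them as intensity on a linear scale after background subtraction. The deposited table holds each intensity as a ratio to the array's 75th percentile. Here the scanner intensities were scaled in that way over all spots but controls, put on the log2 scale and averaged over the spots of a probe. Outlier flags removed 30 probes. Tested probes were those that all 3 arrays of either genotype measured well above background, and the brightest of them stood for its gene. No spot was saturated. The comparison used limma 3.58.1 in R 4.3.3 (two-sided), with Benjamini-Hochberg adjustment over 21590 genes. Scripts were tested on simulated arrays. TAIR10.1 supplied names for 28595 of 29030 locus codes. Apart from the gene order used for the flanking genes, no coordinates were taken from it, since the array's design is older. Named were all SWEET genes, *HY5*, at most 3 called genes of each list, and the genes most like *SWEET1*. Other list genes were named to describe their list. The members and gene lists were chosen with earlier results of these data known. Same-numbered arrays had deviation correlations of -0.025, -0.087 and 0.085 and were not paired. Alternatives covered background correction, normalization, filters, probes, the deposited table, tests, a replicate block and leaving out single arrays. Normexp used median signals with an offset of 50. The number of arrays limits the precision.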

Additional observations from a re-analysis of the deposited data

How the results depend on the processing

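Of 161 values of the 9 tested SWEET members under other processing, 154 stayed on the same side of 0 and of the joint threshold, 4 (*SWEET2*) gained it and 3 changed sign. The 3 were *SWEET13* without wild-type replicate 3 (0.14) and without *hy5* replicate 2 (0.043) (-0.28 to 0.14 over the arrays left out) and *SWEET14* without wild-type replicate 2 (-1.56 to 0.24). The number of members called was 1, and 2 under quantile normalization and cyclic loess, and 1 to 2 with each array left out. With a replicate block, limma called 1 member, *SWEET1*, and 2470 genes, and the block changed no call of a member. No slide or scan block was run, because no slide or scan session held both genotypes.

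Limma called 2460 genes in all, 57.5% of them higher. Normexp, which adds an offset, called 1253 (42.2% higher), limma without a filter on dim probes 5047 (27.4%) and the methods' t-test without a filter 4174 (30.3%), with medians over all genes of -0.20, -0.18 and -0.17. With each array left out the count was 2269 to 2697. Of 33 other SWEET and related sugar genes tested, 4 were called, beside 11.4% of all genes tested. The count was 2 with normexp and 2 by the methods' t-test after adjustment. Without a filter 48 of these genes were tested, and limma called 9 and the methods' t-test 8. With each array left out the count was 3 to 7 (7 without wild-type replicate 3). The cause was not tested.

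Omitting the scaling between arrays was chosen after seeing the data. It called 9731 genes (98.8% higher), 5 members, all higher, and 16 related genes, gave a median of 0.93 over all genes, and put *SWEET13* at 0.82 and *SWEET14* at 0.096. Signal over background limits *SWEET4*, *SWEET13* and *SWEET14*.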

Other observations

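The high value of *SWEET14* on wild-type replicate 2 had company. On that array 90 probes were well above background and above every other array by at least 2.5 on the log2 scale, among them the *SWEET5* probe and the brighter *SWEET14* probe. The same count was 120 on wild-type replicate 1, 23 on wild-type replicate 3 and 3 on each *hy5* array. No outlier flag was set on the *SWEET5* and *SWEET14* probes.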
